A study of Mus musculus with 10 samples.

Results

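Malat1, Neat1, Miat and Pvt1 are long noncoding RNAs (lncRNAs) transcribed from mouse autosomes and known for staying largely in the nucleus. They were chosen by gene name, and they make up 4 of the 24386 gene rows in each of the 10 deposited tables. New transcription was measured by TT-seq, in which RNA made during a short pulse of 4-thiouridine (4sU) is purified and sequenced. All samples came from TX1072, a female embryonic stem cell (ESC) line labelled WT, with a Cast (Mus musculus castaneus) and a B6 (C57BL/6) copy of every chromosome and with a doxycycline (DOX) inducible promoter at Xist on the B6 X chromosome. The cells were grown with LIF, the 2 inhibitors called 2i and serum, and RNA was labelled for 5 min with 0.5 mM 4sU. There were 5 groups of 2 replicates each: a group without DOX (0 h), and groups after 4, 8, 12 and 24 h of DOX at 1 µg/ml. DOX was added to plated cells, so the later groups were also in culture for longer, and no DOX-free group of the later times was analysed here. The effects of Xist RNA, of DOX and of time in culture therefore cannot be told apart.

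Malat1 gathers in nuclear speckles, bodies rich in splicing factors, and is among the most abundant lncRNAs of mammalian cells. Neat1, its neighbour on the chromosome, is the RNA scaffold of paraspeckles, nuclear bodies that assemble around it together with proteins such as Nono, Sfpq and Pspc1. Miat, also called Gomafu, is known from neurons, where it lies in nuclear spots and binds splicing factors. Pvt1 lies beside the proto-oncogene Myc and is known for enhancer elements within its body and for a promoter that competes with that of Myc.

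The rows stood in 3 places of the mm10 genome. Malat1 was counted over 6.983 kb at chr19:5795690-5802672 on the minus strand, and Neat1 over 20.771 kb at chr19:5824710-5845480 on the same strand, 22.037 kb apart. Miat was counted over 15.721 kb at chr5:112213228-112228948 on the minus strand, and Pvt1 over 222.227 kb at chr15:62037986-62260212 on the plus strand. GENCODE lists all 4 genes as lincRNAs. Each row counted a whole span, introns included, so the isoforms of a gene are summed in its value.

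What sets Malat1 and the long isoform of Neat1 apart from most RNAs is how they end. Neither is polyadenylated at its 3′ end: RNase P cuts ahead of a tRNA-like RNA, and the new end is held in a triple helix built from U-rich and A-rich stretches. The last 120 bases before the cut are shown for both, from the GENCODE transcripts, at chr19:5795982-5796101 and chr19:5824708-5824827 on the minus strand, with T for U. Capitals mark every run of 10 or more bases that both windows share.
Malat1 3′ end: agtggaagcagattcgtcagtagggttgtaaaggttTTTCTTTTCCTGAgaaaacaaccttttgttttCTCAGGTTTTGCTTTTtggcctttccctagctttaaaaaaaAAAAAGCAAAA
Neat1 3′ end: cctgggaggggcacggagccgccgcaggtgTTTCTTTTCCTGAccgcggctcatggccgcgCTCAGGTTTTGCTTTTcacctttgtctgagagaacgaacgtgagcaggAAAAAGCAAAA
The 3 shared runs were 13, 16 and 11 bases long, came in the same order in both RNAs, and the last one was the A-rich stretch at the very end.

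Right after these ends follow the tRNA-like RNAs, named mascRNA for Malat1 and annotated as Gm27702 for Neat1. They are shown because the first of them has a row of its own in the deposited tables. Capitals mark shared runs of 8 or more bases.
mascRNA: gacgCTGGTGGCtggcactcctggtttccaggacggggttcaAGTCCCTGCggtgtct
Gm27702: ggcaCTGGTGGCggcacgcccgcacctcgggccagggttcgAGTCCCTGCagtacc
The mascRNA row, 58 bases at chr19:5795924-5795981 on the minus strand, lies inside the Malat1 row and held 0 counts in all 10 samples, and the Malat1 row went on for 234 bases beyond it. Reads there overlap both rows on the same strand and have no single row. The 0 therefore does not tell whether mascRNA was made. Gm27702, 56 bases at chr19:5824652-5824707 on the minus strand, begins at the base after the annotated Neat1 end and has no row here.

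Neat1 also has a short, polyadenylated isoform that shares its start. In GENCODE it covers chr19:5842307-5845476, or 15.3% of the Neat1 row, and paraspeckles need the long isoform. The last 60 bases of the short isoform, at chr19:5842307-5842366 on the minus strand, are shown with the polyadenylation signal AATAAA in capitals, which ends 14 bases before the end of the RNA.
Neat1 short isoform end: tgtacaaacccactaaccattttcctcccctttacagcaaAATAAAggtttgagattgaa
Since the row holds both isoforms, its value does not tell how much of each was made.

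Total counts per sample ran from 18809046 to 22274929, of which 49.2% to 52.8% could be assigned to an allele. The induced gene, Xist, stood at 1.53 and 1.41 CPM (the count for each 1000000 counts of the library) at 0 h and between 329 and 664 CPM in the 8 DOX samples. Of 7 pluripotency markers, 6 were expressed, and the summed level of the list was 2587 to 2845 CPM in every sample. The exception, Sox2, was listed at 0 and its row lies within that of Sox2ot on the same strand, where such reads have no single row. Primitive endoderm markers summed to 2.49 to 4.21 CPM and fibroblast markers to 2.96 to 6.06 CPM. Neural markers summed to 52.2 to 68.4 CPM, of which Elavl4 gave 51.2 on average, while Neurod1 averaged 0.15.

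Levels between genes were compared per kb of row. Malat1 averaged 182 ± 16.3 CPM per kb (SD, n = 10 samples over all times), the fifth highest of the 24386 rows. Neat1 averaged 9.06 ± 1.06, Pvt1 4.33 ± 0.20 and Miat 0.086 ± 0.019 CPM per kb. In every sample Malat1 was above Neat1, 17.7- to 23.0-fold, and Neat1 was above Pvt1, 1.90- to 2.48-fold. Pvt1 was 34.0- to 71.7-fold above Miat. The 4 lncRNAs thus kept 1 order of level per length in all 10 samples, and no neighbours in that order overlapped.

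**Figure D1:**
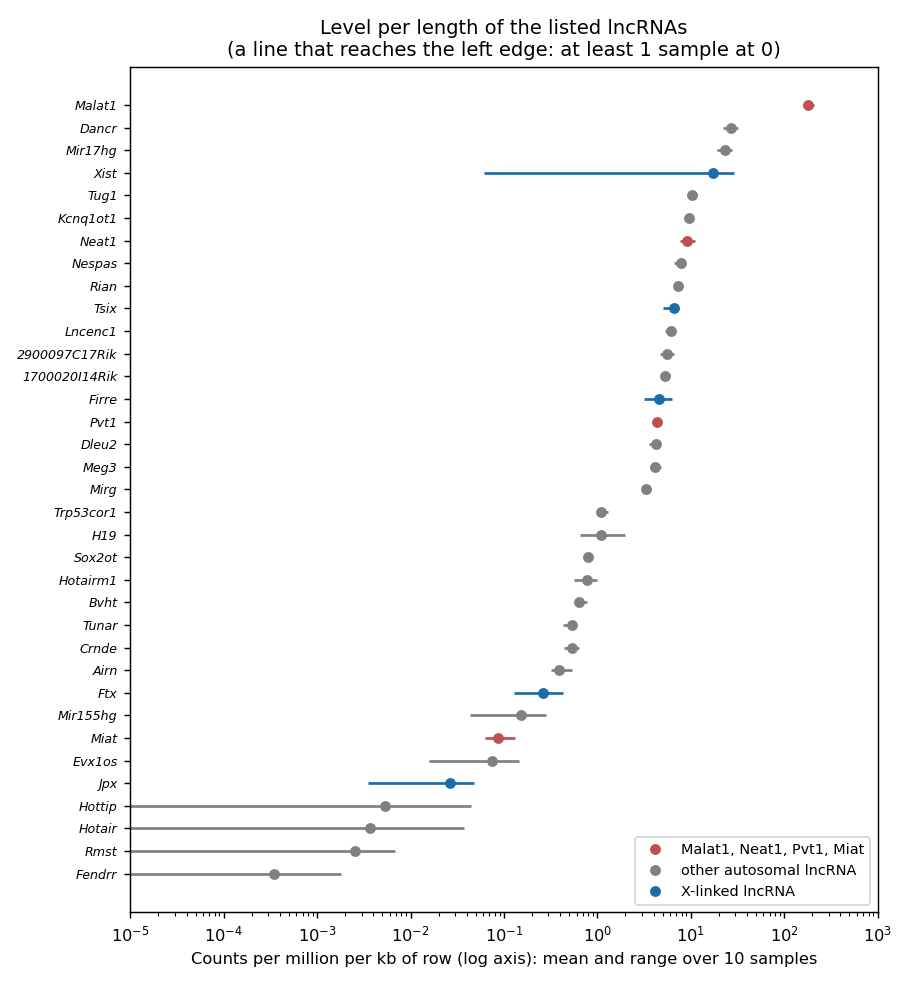
Level of the listed lncRNAs in CPM per kb of row, on a log axis. Points are means over 10 samples and lines run from the lowest to the highest sample, with Malat1, Neat1, Pvt1 and Miat in red, other autosomal lncRNAs in grey and X-linked ones in blue. Malat1 at 182 stands apart from Dancr at 27.3, Neat1 and Pvt1 lie among the expressed lncRNAs, and Miat at 0.086 is near the low end. Peg13, at 0, is not drawn.

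Among 31 autosomal lncRNA rows, the 4 included, Malat1 ranked first, Neat1 sixth, Pvt1 12th and Miat 25th. Next below Malat1 came Dancr at 27.3 ± 3.18 and Mir17hg, the host of a miRNA cluster, at 23.5 ± 2.54 CPM per kb. Neat1 was close to Tug1, at 10.3 ± 0.73, and to the imprinted Kcnq1ot1, at 9.57 ± 0.43, and its own range of 7.67 to 11.2 overlapped both. Pvt1 was next to Dleu2, at 4.24 ± 0.33, and Meg3, at 4.11 ± 0.39. As a share of the library, in which the length of the row counts too, Pvt1 came close to Malat1: it took 0.0888% to 0.104% of all counts, against 0.110% to 0.145% for Malat1, 0.0159% to 0.0232% for Neat1 and no more than 44 single counts for Miat.

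The first question was whether transcription of these autosomal genes moved while Xist was being made. Total counts were tested with edgeR's quasi-likelihood test over 14525 genes, each time against 0 h, and a gene was called at a Benjamini-Hochberg adjusted p under 0.05. None of the 4 was called at 4, 8, 12 or 24 h, where 0.0138%, 0.193%, 0.95% and 1.85% of all genes were called. At an unadjusted p under 0.05 the counts were 0, 0, 1 and 1 of the 4, where 2.09%, 4.06%, 11.5% and 10.3% of all genes passed, and DESeq2 and limma-voom also called 0 at each time. DESeq2 gave no adjusted p for Miat at 8 or 12 h, so its result there does not cover Miat. Replicate numbers were shared between times in the labels, and same-numbered samples deviated together, so a fit with the replicate number as a block was set beside it. With the block, none of the 4 was called at 4 or 8 h, Neat1 was called lower at 12 h and Malat1 higher at 24 h, where that fit called 0.0344%, 0.744%, 4.94% and 5.32% of all genes.

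**Figure D2:**
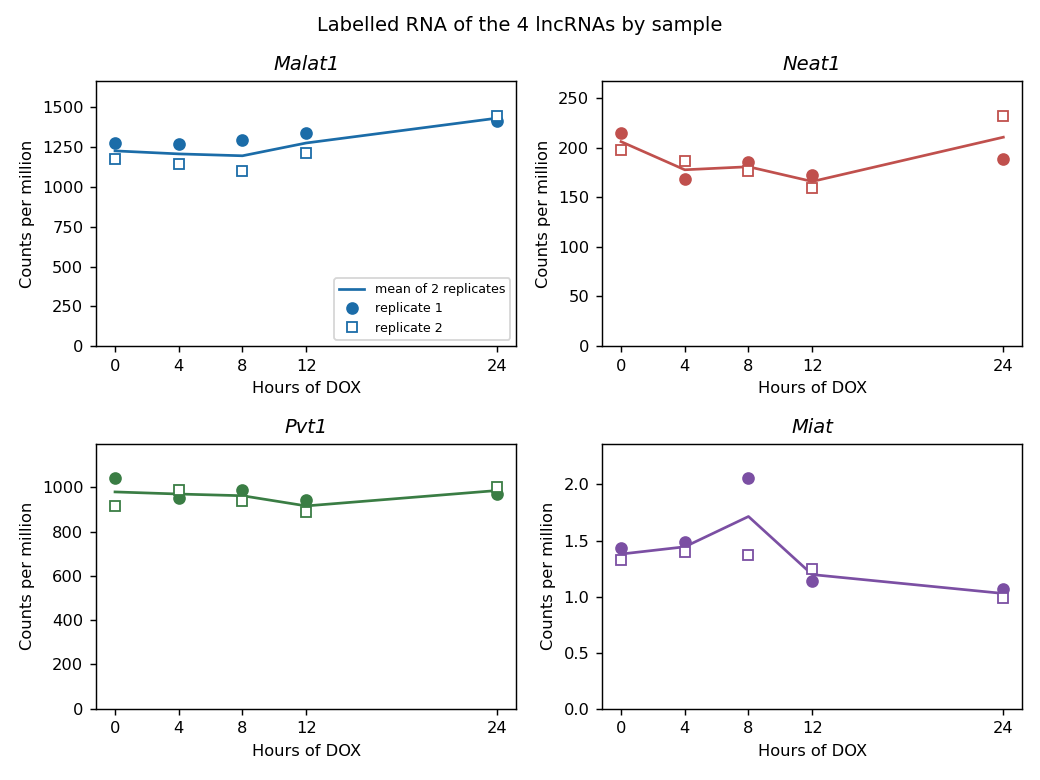
CPM of each lncRNA against hours of DOX, with both replicates as points, their mean as a line and each vertical axis starting at 0. Malat1 is highest at 24 h in both replicates (1417 and 1448 CPM), Neat1 has its lowest mean at 12 h (173 and 159 CPM), Pvt1 stays between 888 and 1040.3 CPM, and Miat never exceeds 2.05 CPM.

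Before DOX, Malat1 held 1279 and 1175 CPM, from 26704 and 25764 counts. After 4 h the replicates were at 1273 and 1143 CPM, and after 8 h at 1293 and 1099 CPM. They reached 1337 and 1215 CPM after 12 h, and 1417 and 1448 CPM after 24 h. Both 24 h samples were above every other sample, while the ranges at 4, 8 and 12 h overlapped that at 0 h. Groups that do not overlap were common at 24 h against 0 h: 35.8% of all tested genes had them.

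The fitted change of Malat1 was 0.00 at 4 h and 0.00 at 8 h on the log2 scale, with 95% intervals of -0.19 to 0.19 at both times. At 12 h it was 0.11 (SE 0.09), or 0.02 without replicate 1 and 0.18 without replicate 2 of 12 h. At 24 h it was 0.24 (SE 0.09), a 1.18-fold higher level with a 95% interval of 1.03- to 1.35-fold, which missed the threshold (edgeR adjusted p = 0.313) and lay further from 0 than that of 75.6% of all tested genes. With the replicate block the change was again 0.24 (SE 0.07) and passed (edgeR adjusted p = 0.0445), but the call was lost without either 0 h sample, without either 8 h sample or without replicate 2 of 24 h, in which case the change was 0.13 (edgeR adjusted p = 0.585). As a straight line over the hours, Malat1 gained 0.26 on the log2 scale per 24 h (95% interval 0.10 to 0.43), with an edgeR adjusted p of 0.0773, where 3.15% of genes were called. The line passed with the block (edgeR adjusted p = 0.016), where 5.67% of genes were called. Tested over the 4 times together, Malat1 was not called, with an edgeR adjusted p of 0.639, or of 0.0703 with the block.

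Neat1 started from 215 and 197 CPM before DOX, or 4489 and 4327 counts. The replicates were at 169 and 187 CPM after 4 h, 185 and 176 CPM after 8 h, then 173 and 159 CPM after 12 h. After 24 h they lay apart, with 189 and 232 CPM. Every sample of 4, 8 and 12 h was below both 0 h samples, a separation that 24.9%, 30% and 40.6% of all tested genes showed at those times, and the 24 h samples lay on either side of them.

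The fitted change of Neat1 against 0 h was -0.19 (SE 0.10) at 4 h and -0.16 (SE 0.10) at 8 h on the log2 scale. The 4 h value was -0.10 without replicate 1 and -0.29 without replicate 2 of that time. At 12 h it was -0.26 (SE 0.10; 95% interval -0.47 to -0.05), a level 0.835-fold that of 0 h, with an edgeR adjusted p of 0.317. With the block the 12 h change was -0.26 (SE 0.08) and passed (edgeR adjusted p = 0.0474), and the call was lost without replicate 1 of 0 h (-0.18) or replicate 2 of 12 h (-0.16). At 24 h the change against 0 h was 0.05 (95% interval -0.17 to 0.26).

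From 12 to 24 h Neat1 differed by 0.31 (SE 0.10), or 1.24-fold (95% interval 1.07 to 1.43), a contrast added after the data were seen. It missed the threshold without the block (edgeR adjusted p = 0.456), where 0.00688% of genes were called, and passed with it (0.30, edgeR adjusted p = 0.0404), where 1.48% were called. Tested over all 4 times together, Neat1 had an edgeR adjusted p of 0.537 and, with the block, of 0.0317, where 1.25% and 6.12% of genes were called. As a straight line it was not called, with an edgeR adjusted p of 0.796, or of 0.706 with the block. Within each sample, Neat1 had 12.9 to 16.8 counts for every 100 of Malat1, and both 0 h samples, at 16.8 and 16.8, were at the top of that range. A change of this ratio was not tested, and how many pairs of genes had 0 h ratios apart from the rest was not counted.

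Pvt1 was the steadiest of the 4. The untreated replicates had 1040.3 and 917 CPM, those of 4 h had 949 and 989 CPM, and those of 8 h had 987 and 936 CPM. After 12 h they had 943 and 888 CPM, and after 24 h 969 and 1001 CPM. Its lowest and highest sample differed 1.17-fold, and its values at every later time overlapped those at 0 h.

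The fitted changes of Pvt1 ran from -0.04 at 12 h to 0.02 at 24 h on the log2 scale. The 95% interval of the 24 h change, -0.14 to 0.19, allows a level between 0.905- and 1.14-fold that of 0 h. Over all times together Pvt1 had an edgeR adjusted p of 0.992, and of 0.957 with the block. Myc, whose gene ends 47.624 kb before the Pvt1 row on the same strand, held 5.08 to 7.32 CPM from 98 to 163 counts, and its fitted change at 24 h was 0.23 (SE 0.16; edgeR adjusted p = 0.698). Per kb of row, Pvt1 was 2.78- to 4.40-fold above Myc in the 10 samples.

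Miat was close to the limit of what these libraries could count. The untreated replicates had 30 and 29 counts, those of 4 h had 28 and 27, and those of 8 h had 44 and 27. After 12 h there were 24 and 27 counts, and after 24 h 21 and 22. In CPM the untreated replicates had 1.44 and 1.32, those of 8 h had 2.05 and 1.37, and those of 24 h had 1.07 and 0.988. Both 12 h and both 24 h samples lay below the 0 h samples, and 1 sample of 8 h lay above all others. Groups apart from 0 h were seen in 40.6% of all tested genes at 12 h and in 35.8% at 24 h.

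The fitted change of Miat at 24 h was -0.41 on the log2 scale, with a 95% interval of -1.05 to 0.23 and an edgeR adjusted p of 0.730. The interval holds lower and higher levels alike. The straight line gave -0.50 per 24 h (95% interval -1.10 to 0.10; edgeR adjusted p = 0.506).

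**Figure D3:**
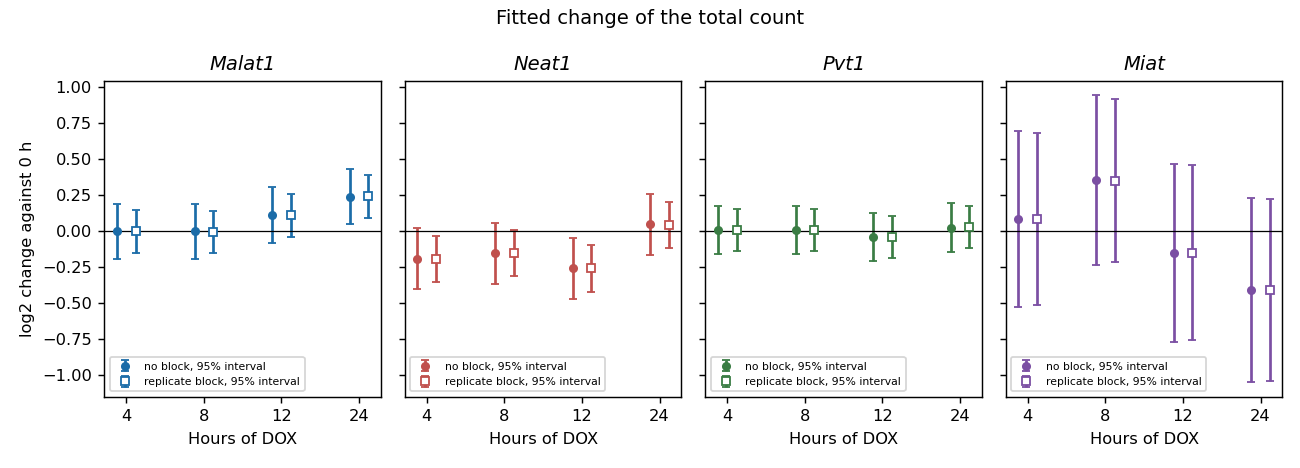
Fitted log2 change of each lncRNA at 4, 8, 12 and 24 h against 0 h, from edgeR, without the replicate block (filled) and with it (open), with 95% intervals. The Malat1 change at 24 h (0.24) and the Neat1 change at 12 h (-0.26) have intervals that leave out 0 in both fits, Pvt1 stays within 0.05 of 0, and the intervals of Miat are the widest.

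The second question was whether the balance of the alleles moved. Of the 4, Malat1, Neat1 and Pvt1 had enough allele-assigned reads in every sample to be tested: 10198 to 15417 for Malat1, 1712 to 2754 for Neat1 and 12517 to 15650 for Pvt1. The B6 share is the part of a gene's allele-assigned reads that came from the B6 copy. Miat had 8 to 15 such reads per sample and was not tested. Against 0 h, none of the 3 was called for a changed B6 to Cast ratio at 4, 8, 12 or 24 h (edgeR quasi-likelihood test over 11906 genes), where 0.361%, 1.66%, 2.15% and 2.64% of genes were called. At an unadjusted p under 0.05 the counts were 0, 0, 2 and 0, where 5%, 5.9%, 7.38% and 8.21% of all genes passed, and DESeq2 called 0 at each time.

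**Figure D4:**
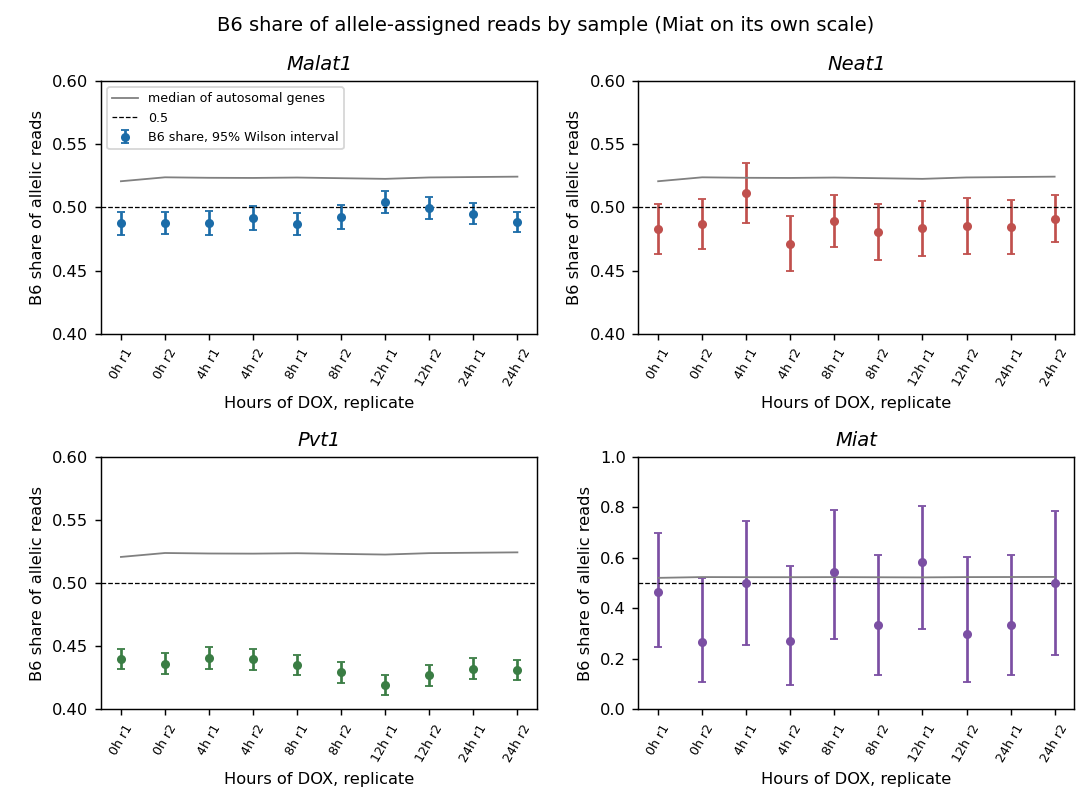
B6 share of allele-assigned reads in each of the 10 samples, with 95% Wilson intervals that cover counting error only. The grey line is the median of 11543 autosomal genes and the dashed line is 0.5. Malat1 and Neat1 lie close to 0.5, all 10 samples of Pvt1 lie between 0.419 and 0.440, and Miat, on its own scale, has intervals too wide to place.

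Before DOX the B6 share of Malat1 was 0.487 and 0.488 in the replicates, followed by 0.488 and 0.491 after 4 h and by 0.487 and 0.492 after 8 h. The later replicates had 0.504 and 0.500 after 12 h, then 0.495 and 0.488 after 24 h. The 12 h samples were the highest of the 10, and 9 of 10 samples were below 0.5. The share of all genes whose 12 h B6 shares lay apart from those at 0 h was not counted. On the log2 scale the B6 to Cast ratio at 12 h differed from that at 0 h by 0.08 (95% interval 0.01 to 0.16; edgeR adjusted p = 0.578), and at 24 h by 0.02 (95% interval -0.05 to 0.10).

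Neat1 had B6 shares of 0.483 and 0.487 before DOX, of 0.512 and 0.471 after 4 h, and of 0.489 and 0.480 after 8 h. The replicates of 12 h had 0.483 and 0.485, and those of 24 h had 0.484 and 0.491. The pair at 4 h spanned all the other samples. The ratio at 24 h differed from that at 0 h by 0.02 on the log2 scale (95% interval -0.12 to 0.15).

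For Pvt1 the untreated replicates had B6 shares of 0.440 and 0.436, those of 4 h had 0.440 and 0.440, and those of 8 h had 0.435 and 0.429. Those of 12 h had 0.419 and 0.427, and those of 24 h had 0.432 and 0.431. All 10 samples were below 0.5, and the 12 h pair was the lowest. How many genes had 12 h B6 shares apart from those at 0 h was not counted. The 40.6% of all tested genes with groups apart at 12 h is for CPM and cannot stand in for that count. The ratio at 12 h differed from that at 0 h by -0.09 on the log2 scale (95% interval -0.16 to -0.01; edgeR adjusted p = 0.472) and at 24 h by -0.04 (95% interval -0.11 to 0.04).

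A standing difference between the alleles over all times was called for all 3, in a test that called 74.7% of all genes. For Pvt1 the B6 to Cast ratio was -0.39 on the log2 scale (SE 0.01; edgeR adjusted p = 5.58e-61), so the Cast copy gave 1.31-fold the reads of the B6 copy (95% interval 1.29 to 1.33). For Malat1 the ratio was -0.05 (SE 0.01; edgeR adjusted p = 0.000393), a 1.03-fold lean to Cast, and for Neat1 it was -0.08 (SE 0.02; edgeR adjusted p = 0.00115), a 1.06-fold lean. With the allele columns scaled to their autosomal reads the ratios were -0.17 for Malat1, -0.20 for Neat1 and -0.51 for Pvt1, all called. Against the unscaled ratios, the median autosomal gene leaned to B6, with a ratio of 0.13 on the log2 scale and a median B6 share of 0.521 to 0.524 per sample. Of the 11543 autosomal genes tested, 14.4% had a lower ratio than Pvt1, 28.0% a lower one than Neat1 and 30.5% a lower one than Malat1. A bias in assigning reads to alleles would enter these ratios as well, and its part was not tested. In Miat, 48 B6 and 70 Cast reads summed over the samples gave a B6 share of 0.407 (95% Wilson interval 0.322 to 0.497).

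Myc leaned to Cast like Pvt1: its ratio was -0.67 on the log2 scale (SE 0.16; edgeR adjusted p = 4.43e-05), from 27 to 68 allelic reads per sample, and its B6 share was below 0.5 in all 10 samples. Frmd8, 5.493 kb from Neat1, also leaned to Cast, by -0.23 on the same scale, while Tpst2, 47.742 kb from Miat, leaned to B6, by 0.29. Of 19 tested genes within 200 kb of the 4 lncRNAs, 10 were called higher from B6, 5 higher from Cast and 4 were not called, where 49.2% of all genes were called higher from B6 and 25.5% from Cast. Of 19 other autosomal lncRNAs, 12 were called higher from B6 and 5 from Cast, from -0.99 for Mirg to 7.11 for Lncenc1. These splits moved with the scaling: relative to autosomal reads, 7 neighbours were called higher from B6 and 6 from Cast, as were 10 and 6 of the other lncRNAs, where 35.8% and 35.5% of all genes were.

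The proteins and genes that work with these RNAs were followed next, as lists and without a test of a list as a whole. Paraspeckle proteins had 18 of 20 listed genes tested, with a median log2 change of 0.03 at 24 h beside 0.01 over all genes, and 1 of them, the X-linked Nono, was called, where 1.85% of all genes were called and 10.3% had an unadjusted p under 0.05. Nono, which binds Neat1 at the core of the paraspeckle, held 310 and 280 CPM at 0 h and 221 and 199 CPM at 24 h. It fell by 0.48 on the log2 scale (edgeR adjusted p = 0.00259), a call lost without replicate 2 of 24 h (-0.42; edgeR adjusted p = 0.0592). Its B6 share went from 0.461 and 0.459 at 0 h to 0.250 and 0.238 at 24 h, a change that was called as well. Its autosomal partners Sfpq and Pspc1 were not called.

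Rbm14 and Rbm12, the paraspeckle proteins left out, were listed at 0 in every sample, with rows inside those of other genes on the same strand. Of 21 speckle and splicing factors, such as Son, Srrm2 and the Srsf proteins, 0 were called at 24 h (edgeR), where 1.85% of all genes were, and 0 by DESeq2. Their median was 0.03, and 1 had an unadjusted p under 0.05, where 10.3% of all genes did. Of 12 tested genes for RNase P, tRNA 3′ processing and Mettl16, which binds the Malat1 triple helix, 0 were called by edgeR or DESeq2, with a median of -0.01 and 1 at an unadjusted p under 0.05, beside the same shares of all genes. With the replicate block 1 of these was called, Elac2, the nuclease that trims tRNA 3′ ends, which fell by 0.29 (edgeR adjusted p = 0.018), where that fit called 5.32% of all genes. Of 3 listed binding partners of Miat, 1 was tested, Sf1, which changed by -0.08 at 24 h without being called. Celf3, with no more than 6 counts in any sample, was not tested, and Qki had no row under that name.

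**Figure D5:**
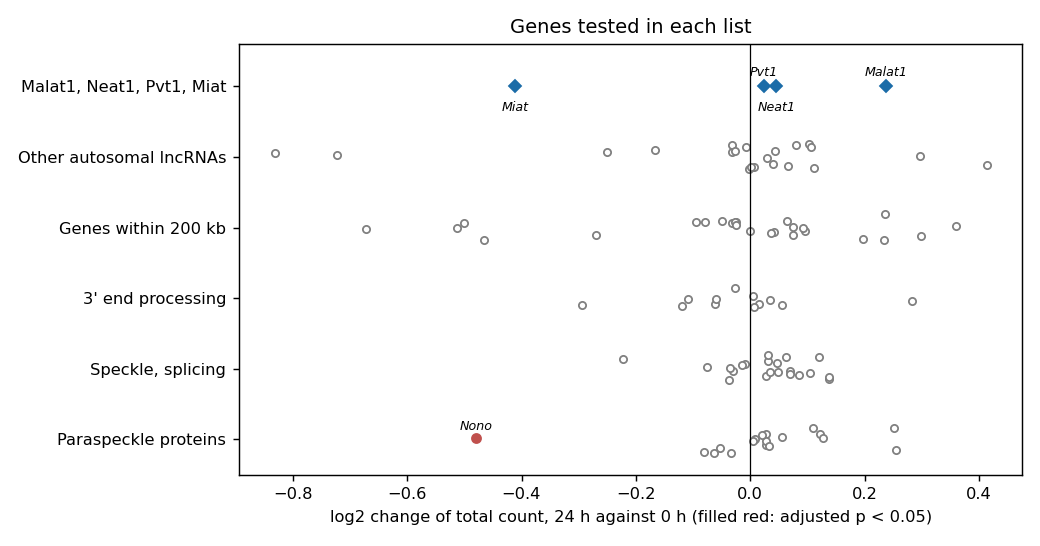
Fitted log2 change of the total count at 24 h against 0 h for the tested genes of 5 lists, with Malat1, Neat1, Pvt1 and Miat in the top row. Each point is 1 gene, its height within a row has no meaning, and the filled red point, Nono at -0.48, is the gene called in these lists.

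Of 25 tested genes within 200 kb of the 4 lncRNAs, 0 were called at 24 h by edgeR, with or without the block, and 0 by DESeq2. Of all genes, edgeR called 1.85% without the block and 5.32% with it. Their median was 0.00, and 1 had an unadjusted p under 0.05, where 10.3% of all genes did. Among the nearest tested genes, the log2 changes were 0.00 (Frmd8, beside Neat1), 0.11 (E130006D01Rik, 451.499 kb from Miat) and -0.03 (Tpst2, 47.742 kb from Miat). On the far side of Pvt1 the nearest tested gene was Gsdmc4, 1631.052 kb away, at 0.304 CPM and with a change of 0.79 (SE 0.51). None of 19 tested for the B6 to Cast ratio was called either, where 2.64% of all genes were called at 24 h.

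Of the other autosomal lncRNAs, 21 were tested and 0 were called at 24 h by edgeR or DESeq2, where edgeR called 1.85% of all genes. Their median was 0.01, and 2 had an unadjusted p under 0.05, where 10.3% of all genes had one. With the replicate block, 3 of the 21 were called, where 5.32% of all genes were. Airn, an imprinted lncRNA, rose by 0.42 (edgeR adjusted p = 0.00021), Dleu2 rose by 0.30 (edgeR adjusted p = 0.00615) and H19 fell by 0.71 (edgeR adjusted p = 0.042). H19 had low counts, 37 to 108 per sample, and an edgeR adjusted p of 0.561 without the block. Its samples overlapped, with 2.64 and 5.17 CPM at 0 h and 1.71 and 3.00 CPM at 24 h. None of 19 tested was called for a change of the B6 to Cast ratio at any time, where 0.361% (4 h) to 2.64% (24 h) of all genes were called.

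Of 5 X-linked lncRNAs, 3 were called at 24 h for the total count in the same libraries, where 1.85% of all genes were called. Xist rose by 8.26 on the log2 scale at 24 h (edgeR adjusted p = 3.73e-11). Ftx, from 24.3 and 27.2 CPM at 0 h to 8.90 and 8.08 CPM at 24 h, fell by 1.59 (edgeR adjusted p = 7.2e-06). Firre, a nuclear lncRNA that organises chromatin, fell by 0.89 (edgeR adjusted p = 7.2e-06), from 458 and 456 CPM to 238 and 253 CPM, and its B6 share went from 0.516 ± 0.006 to 0.153 ± 0.025 (SD, n = 2). The other two were not called for the total count. Tsix, the antisense partner of Xist, changed by 0.06 at 24 h (edgeR adjusted p = 0.909), while its B6 share went from 0.523 ± 0.014 to 0.326 ± 0.008 (SD, n = 2), a change of its B6 to Cast ratio that was called. Jpx, whose fitted change was -1.57 (SE 0.67; edgeR adjusted p = 0.345), had no more than 0.622 CPM in any sample. The largest of the 3 tested shifts of the B6 to Cast ratio among Malat1, Neat1 and Pvt1 at 24 h was -0.04, that of Pvt1.

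Likeness of course was measured by Pearson's r of log2 CPM over the 10 samples against 12441 autosomal genes. The genes closest to Malat1 were Nat8f1 (r = 0.96), Zfp689 (0.95) and 6030419C18Rik (0.94), and those closest to Neat1 were Tmem200a (0.95), Adnp2 (0.93) and Tbc1d14 (0.92). For Pvt1 they were Tspan9 (0.95), Arhgef3 (0.93) and C130060C02Rik (0.92), and for Miat they were Stra6l (0.90), Nfkbie (0.89) and Scamp1 (0.89). The points share their libraries and the genes were picked as the highest of many, so these values are a description. Among the 4 themselves, r was 0.73 for Neat1 with Pvt1, 0.41 for Malat1 with Neat1 and 0.38 for Malat1 with Pvt1, and Miat had r of -0.42, -0.25 and 0.13 with Malat1, Neat1 and Pvt1.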

How the data were processed

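TT-seq libraries of 10 samples were analysed, 5 times with 2 replicates each, grouped by their titles. The authors aligned reads with STAR to an mm10 genome masked at strain differences, assigned them to alleles with SNPSplit and counted them by strand over whole gene spans with featureCounts 1.5.1; the submitters' processing notes also name TopHat2 2.1.0. The deposited values are raw counts per gene (all, B6 and Cast), with no scaling to spike-in RNA, and a deposited fraction, B6 over B6 plus Cast counts, absent under 10 allelic reads. Intervals on shares are 95% Wilson intervals and cover counting error only. Deposited starts were read as 0-based and printed 1-based. Sequences come from GENCODE vM21 transcripts.

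For all-read counts, edgeR 4.0.16 (R 4.3.3) fitted a quasi-likelihood model of time to the 10 samples together, on the 14525 genes that filterByExpr kept, with TMM scaling. For allelic counts, the same test was run on 20 columns, B6 and Cast of each sample, with terms for the sample, for the allele and for the allele at each time, over the 11906 genes whose allelic reads numbered at least 10 in each sample. p-values were two-sided and adjusted by Benjamini-Hochberg over all genes tested. The study calls its TT-seq duplicates biological, but the labels do not say that they were separate cultures, so p-values measure only the spread between these samples. The chi-square per degree of freedom between replicates was 10.8 at 0 h and 5.08 to 5.81 at the later times, so none was a copy of the other. The 0 h replicates, which every change against 0 h rests on, thus differed most. Replicate 1 of 0 h also had the lowest allele-assigned share of the 10 samples, 49.2%, and the highest TMM factor, 1.04. For total counts, same-numbered samples of different times had correlated deviations from their time means in all 10 pairs of times. The r across genes was 0.142 to 0.280, so the numbers were taken to pair the samples. The main fit leaves this pairing out, and the fit with the block takes it in. The total and allelic models were tested on simulated data without the block, and the fits with the block were not. Alternatives were DESeq2 1.42.0, limma-voom (limma 3.58.1), RLE scaling, no filter on low counts, at least 50 allelic reads, scaling to autosomal allelic reads, adjustment over autosomal genes, the block, and leaving out each sample. The genes named are the 4 lncRNAs, Myc, nearest tested neighbours, the 3 genes most like each by Pearson's r (mean CPM of at least 1), and up to 6 called genes per list; the genes named for their level, their allele ratio or a call under the block, and the marker genes with the lowest or highest level, were chosen after their values were seen. The 4 lncRNAs and the lists were chosen with earlier results of these data known. Of the neighbouring genes counted, 1 is not reported here by name.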

Additional observations from a re-analysis of the deposited data

How the results depend on the processing

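For total counts, the numbers of calls among the 4 lncRNAs stayed the same with RLE scaling, without the filter on low counts and with adjustment over autosomal genes, and, at each time against 0 h, with DESeq2 and limma-voom, which were not run for the straight line or the 4 times together. The replicate block called 1 of the 4 at 12 h, 1 at 24 h, 1 for any change over the 4 times together and 1 for the straight line, against 0 each without it, and 1 gene of RNA end processing and 3 other autosomal lncRNAs at 24 h. It also called Neat1 for 24 h against 12 h, and it changed no other call among the results given here. The cause of these changes was not tested. Without the filter, 2 other autosomal lncRNAs were called, Airn and Dleu2. Adjustment over autosomal genes leaves out Nono and the X-linked lncRNAs by construction, so both lists then had 0 calls. Leaving out each sample in turn without the block gave 0 to 1 calls among the 4 for the straight line (1, Malat1, without replicate 1 of 0 h), 0 to 1 for paraspeckle proteins (0 without replicate 2 of 24 h) and 0 to 1 for other autosomal lncRNAs (Dleu2, without replicate 2 of 0 h); where this left a time with 1 sample, that sample was assumed to vary like the others. With the block as well, a combination added after the data were seen, Malat1 at 24 h ran from 0.13 to 0.33 and was called in 5 of 10 such fits, and Neat1 at 12 h ran from -0.38 to -0.16 and was called in 8 of 10.

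The standing lean to Cast of Malat1, Neat1 and Pvt1 was called under every alternative run for it. Scaling the allele columns to autosomal reads gave -0.17 for Malat1, -0.20 for Neat1 and -0.51 for Pvt1, where 71.3% of genes were called. For the B6 to Cast ratio, same-numbered samples did not deviate together (mean r 0.018, with 0 of 10 pairs of times over 0.1), and the replicate block changed no call. Directions changed only among changes that were not called. On the log2 scale, DESeq2 gave 0.00059 and 0.00072 for Malat1 at 4 and 8 h, and the ratio of Neat1 at 8 h was -0.0041 with the autosomal scaling, -0.00077 with the replicate block and -0.00063 with DESeq2. Leaving out each sample in turn gave, for total counts, -0.060 to 0.050 for Malat1 at 4 h and -0.13 to 0.10 at 8 h, -0.13 to 0.19 for Neat1 at 24 h, and for Pvt1 -0.062 to 0.082 at 4 h, -0.065 to 0.079 at 8 h, -0.12 to 0.024 at 12 h and -0.051 to 0.093 at 24 h. The straight line ran from -0.0059 to 0.0074 per hour for Neat1 and from -0.0015 to 0.0018 for Pvt1. The B6 to Cast ratio ran from -0.0031 to 0.028 for Malat1 at 8 h and from -0.00037 to 0.022 for Pvt1 at 4 h. For Neat1 it ran from -0.078 to 0.15 at 4 h and from -0.027 to 0.024 at 8 h. The Neat1 ratio ran from -0.017 to 0.0085 at 12 h and from -0.0023 to 0.035 at 24 h. That of Malat1 at 24 h kept its direction, at 0.0060 to 0.044. Depth limits Miat, with 21 to 44 counts and 8 to 15 allelic reads per sample.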
